A study of Mus musculus with 4 samples.

Results

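The cytokine interleukin-3 (IL-3) was combined with the leukaemia kinase BCR-ABL in Ba/F3 cells. The array of these cells was compared gene by gene with the arrays of BCR-ABL cells kept without IL-3. The comparison took 3 of the 4 arrays of the series and all 19935 genes that the array annotation names with a single symbol. The cells were a mouse Ba/F3 line kept in 500 ng/ml doxycycline, the drug that induces its BCR-ABL. Without IL-3 this line gave the 2 arrays A and B, and with IL-3 a single array (n = 1). Doxycycline and BCR-ABL were on both sides of the comparison, and IL-3 alone was named as the difference. The sample titles do not say whether IL-3 or BCR-ABL came first, or for how long each was present. The remaining array held parental Ba/F3 cells grown with IL-3, for which the labels give no doxycycline dose. All cells were in logarithmic growth in medium with serum, and Affymetrix Gene 1.0 ST arrays measured total RNA. The study was set up to find genes driven by BCR-ABL and by growth factor that bear on resistance to imatinib. Whether A and B are separate cultures, or the doxycycline line a single clone, the labels leave unsaid. All p-values thus reflect the spread between these particular arrays, and that spread may be technical.

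Ba/F3 is a pro-B cell line that dies without IL-3. IL-3 binds a receptor made of an alpha chain and a shared beta chain, and the kinase JAK2 on that receptor phosphorylates the transcription factor STAT5 and opens the RAS-ERK and PI3K-AKT pathways. BCR-ABL is a constantly active tyrosine kinase that feeds STAT5, ERK and AKT without any receptor, which is why it frees Ba/F3 cells from the cytokine. IL-3 and the kinase thus act on the same pathways.

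With IL-3, genes of DNA replication, mitosis, nucleotide synthesis and ribosome assembly lay below both arrays without IL-3 in most cases, and 23 of 25 interferon-stimulated and 16 of 25 immediate early genes lay above them. Over all genes, 39.9% lay above both and 25.5% below both. STAT5 targets were near these shares, with 7 of 17 above both and 5 below. Reference genes also lay below both in 7 of 10 cases, and proteasome genes in 30 of 45. The chains of the IL-3 receptor lay close together on the 3 arrays. These were small differences, mostly under 1.5-fold, and a single gene passed the test.

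Every value below is a log2 difference from the parental array, which is 0 for each gene, so +1 is a doubling against parental cells. Values of A, B and the IL-3 array are given in that order, and "difference" means the IL-3 array minus the mean of A and B. Over all genes the IL-3 array differed from A by a median of -0.0002 (SD over genes 0.152) and from B by 0.068 (SD 0.222), while B differed from A by -0.065 (SD 0.196). At least 1.5-fold apart were 62 higher and 34 lower genes against A, 70 and 235 against B, and 147 and 62 between B and A. The IL-3 array was thus no farther from A than B was, by spread and by these counts. Over all genes 39.9% lay above both A and B and 25.5% below both, and with all arrays centred to a median of 0 these shares were 32.6% and 34.1%. Those are the backgrounds for the counts of list members. Precision is limited by this number of arrays.

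**Figure D1:**
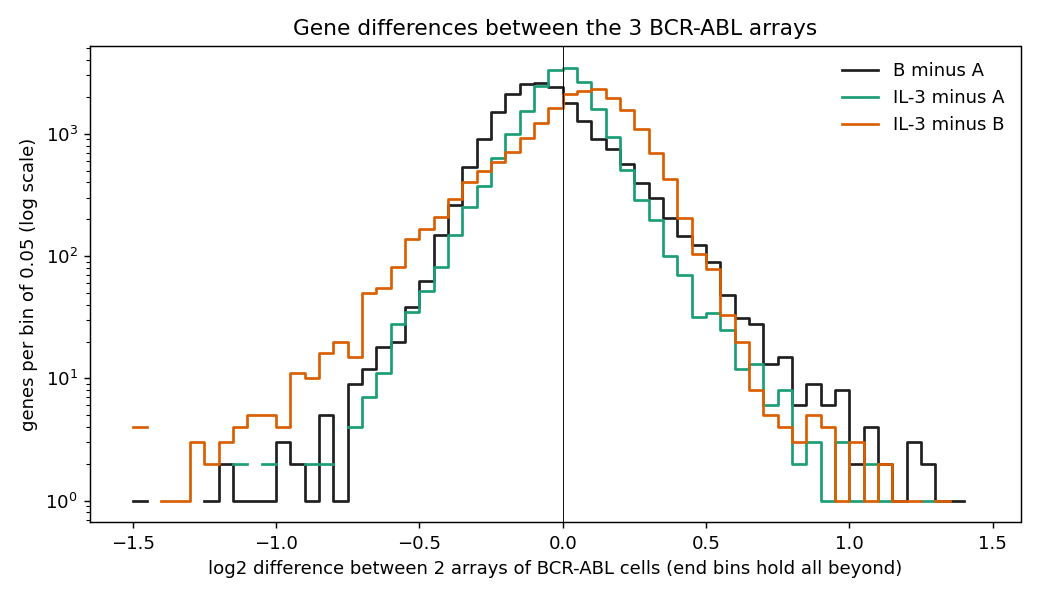
Number of genes (log scale) by log2 difference between pairs of BCR-ABL arrays, in bins of 0.05: B minus A in black, IL-3 minus A in green, IL-3 minus B in orange. The black curve between the arrays without IL-3 (SD 0.196) is broader than the green one (0.152) and narrower than the orange one (0.222), with medians of -0.065, -0.0002 and 0.068.

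Gene by gene, the limma fit called 1 of 19935 genes (0.00502%) at an adjusted p under 0.05, the small nucleolar RNA Snord14e. Its values were -0.19, 0.18 and 1.26, so the IL-3 array lay above both others, which themselves were 0.37 apart. Snord14e rose 2.40-fold with IL-3 (log2 difference 1.26, SE 0.17, 95% interval 0.90 to 1.62, adjusted p = 0.0182), and after centring or quantile normalization its adjusted p was 1.0 or 0.855. Box C/D RNAs of this kind guide methylation of ribosomal RNA and are cut from introns of host genes. Hspa8, the chaperone gene whose introns hold Snord14e, was at 0.27, 0.37 and 0.18, so the host transcript lay below both. Both Snord14e and Hspa8 were chosen after their values were seen. At an unadjusted p under 0.05 stood 598 genes lower with IL-3 (3.0%) and 303 higher (1.52%).

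Past 1.5-fold from both A and B lay 15 genes above (0.0752%) and 8 below (0.0401%). Far2, which encodes a fatty acyl-CoA reductase that makes fatty alcohols, had the widest gap after Snord14e, with values of -3.71, -3.98 and -2.83. Far2 was 2.03-fold higher with IL-3 (log2 difference 1.02, SE 0.16, adjusted p = 0.0732), which missed the threshold, and its level with IL-3 was still far under the parental one. The dual-specificity phosphatases Dusp1 and Dusp10 switch off MAP kinases, mainly p38 and JNK. Dusp1 was at -0.08, -0.17 and 0.70 (difference 0.82, SE 0.15, adjusted p = 0.175). Dusp10 was at 0.66, 0.45 and 1.43 (difference 0.88, SE 0.16, adjusted p = 0.175). In both genes A and B lay within 0.21 of each other and the IL-3 array stood at least 0.77 above the nearer one.

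Hmox1, the haem oxygenase induced by oxidative stress, was at 0.67, 0.84 and 1.59. Csrnp1, a nuclear protein of the immediate early kind, was at 1.26, 1.25 and 1.97. Mxd1, a partner of MAX that opposes MYC at E-boxes, was at -0.06, 0.13 and 0.75. All 3 stood clear of A and B on the IL-3 array, at differences of 0.83, 0.71 and 0.71, and none passed the test. The interferon-inducible Ifi27l2a (0.77, 0.51, 1.52), the Tec-family kinase Txk (0.36, 0.18, 1.05), the placental growth factor Pgf (1.39, 0.96, 2.07), the non-coding RNA Lncpint (-0.76, -0.89, -0.10) and the class I histocompatibility gene H2-T24 (-1.5, -1.65, -0.85) likewise lay above both. The water channel gene Aqp8 was at 0.13, -1.10 and 0.77, and the 1.22 between A and B exceeded its gap of 0.64. Its probe set is in the dim range, which is defined with the processing below.

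Below both arrays, Pole2 and 11 others had the widest gaps once predicted or unnamed genes, receptors of smell and small RNAs were left out. Among those left out, I730030J21Rik (gap -0.71), Mir18 (-0.67) and the olfactory receptor Olfr1252 (-0.67) had wider gaps than Pole2 (-0.63). Their probe sets are in the dim range. Pole2, the small subunit of the leading-strand polymerase epsilon, was at 0.36, 0.45 and -0.27 (difference -0.68, SE 0.15, adjusted p = 0.362). Fancb, a member of the Fanconi anaemia core complex that handles DNA crosslinks, was at 0.81, 1.05 and 0.23. Dscc1, which helps load PCNA and ties replication to sister cohesion, was at 0.70, 0.72 and 0.12. In each of these 3 the array without IL-3 nearest to the IL-3 array was still at least 0.58 above it. Gen1, a resolvase of Holliday junctions, was at 0.22, 0.38 and -0.35, and Cenpk, a centromere protein, at 0.14, 0.34 and -0.44. The replication-dependent histone H3c15 was at -0.50, -0.04 and -1.10. Snhg5, a host gene of small nucleolar RNAs, was at 0.60, 0.59 and 0.03, and the aminotransferase gene Kyat3 at 0.70, 0.63 and 0.0003, so both stood near the parental level with IL-3. The others were Neto2 (1.16, 1.41, 0.55), Nxpe5 (1.13, 1.69, 0.53), Endod1 (0.11, 0.14, -0.47) and Eef1akmt1 (0.67, 0.57, 0.0003). The probe set of Nxpe5 is also in the dim range, and no gene below both passed the test.

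**Figure D2:**
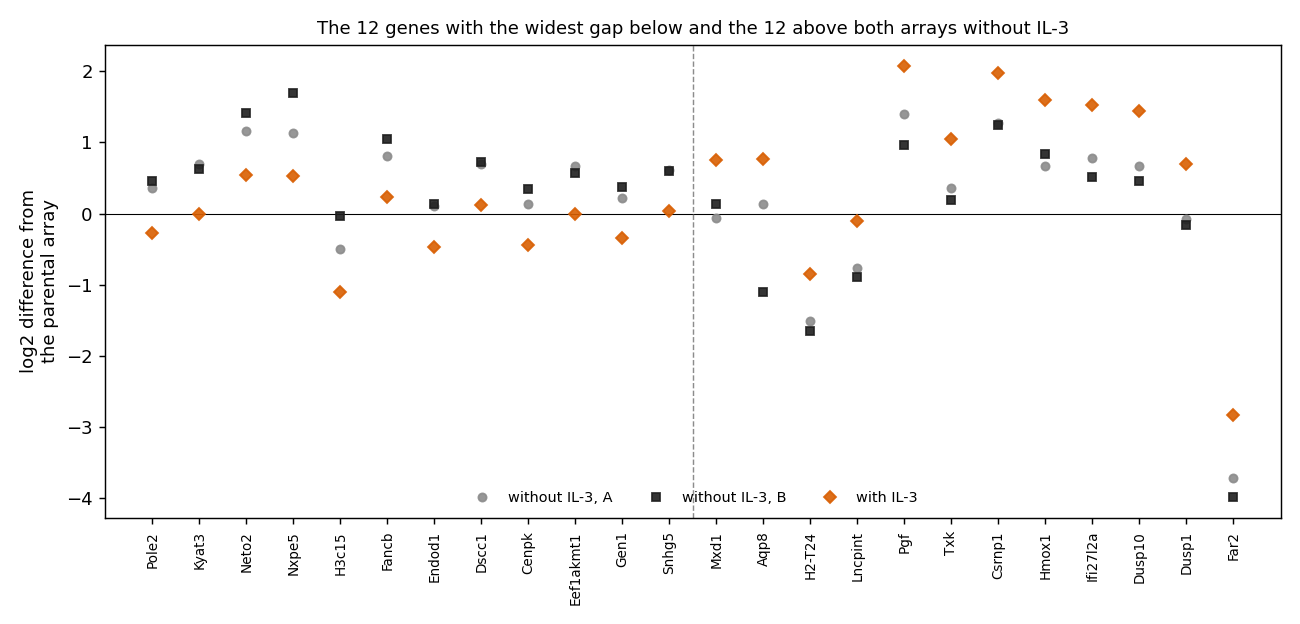
Log2 difference from the parental array (0) on each BCR-ABL array. Shown are the 12 genes with the widest gap below (left of the dashed line) and the 12 above (right) A and B. Predicted or unnamed genes, receptors of smell and small RNAs were left out of this choice. Grey circles are A, black squares B and orange diamonds the array with IL-3. Far2 stands alone at the bottom, at -2.83 with IL-3, and Aqp8 shows the widest distance between A and B.

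The IL-3 receptor and its kinases differed little between these arrays. The alpha chain Il3ra was at -0.44, -0.57 and -0.45, the beta chain Csf2rb at 0.04, -0.06 and 0.07, and its mouse-specific twin Csf2rb2, which pairs with IL-3 only, at 0.06, -0.12 and -0.04. Of these only Csf2rb lay above both, by 0.03. Jak2 was at -0.19, -0.14 and -0.09, Stat5a at 0.02, -0.22 and -0.28 and Stat5b at -0.56, -0.52 and -0.56. Of 16 receptor and JAK-STAT components 6 lay above both and 5 below both, with a median difference of 0.06. Stat3, a STAT of the IL-6 family, was the member farthest above both, at -0.18, -0.33 and 0.01. The Il3 gene itself was at -0.01, -0.01 and -0.12, on a probe set in the dim range.

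Some STAT5 targets that stood far above the parental level in BCR-ABL cells were close on the 3 arrays, while others lay higher with IL-3. Cish, an inhibitor that shuts down STAT5 signalling, was at 2.11, 2.0 and 2.11 (difference 0.05, 95% interval -0.27 to 0.38). The interleukin-2 receptor chain Il2ra was at 4.10, 4.12 and 4.02 (difference -0.09, 95% interval -0.41 to 0.24). Bcl2l1, which encodes the survival protein BCL-XL, was at 1.00, 0.97 and 0.91. The 3 genes thus lay within 0.11 of A and B on the IL-3 array, and intervals of this width leave room for changes of about 0.4 either way. The survival kinases Pim2 (3.01, 2.95, 3.13) and Pim1 (0.35, 0.37, 0.60), the feedback inhibitors Socs1 (1.82, 1.77, 1.95) and Socs3 (0.44, 0.06, 0.63) and the cytokines Osm (1.84, 1.72, 2.17) and Lif (1.31, 1.17, 1.68) lay above both. Id1, an inhibitor of differentiation factors, went the other way, at -0.13, 0.13 and -0.64 (difference -0.64, SE 0.16, adjusted p = 0.448). Of 17 STAT5 targets 7 lay above both and 5 below both, against 39.9% and 25.5% of all genes, and the median difference was 0.05 (-0.005 against A, 0.08 against B). Differences within the list ran from -0.64 (Id1) to 0.44 (Lif), and none of the 17 was called.

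Feedback genes of the ERK pathway split. The ERK phosphatase Dusp6 was at 1.30, 1.24 and 1.17, the ETS factor Etv5 at 1.37, 1.29 and 0.97 and the RAF inhibitor Spred2 at 0.41, 0.51 and 0.12, all below both. Dusp5, a nuclear ERK phosphatase, was at 2.35, 2.13 and 2.51, Dusp4 at 0.64, 0.67 and 0.96, and Phlda1 at 1.13, 1.43 and 1.69, all above both. With Dusp1 included, 8 of 15 lay above and 5 below. Among 18 adaptors and RAS-PI3K components 7 lay above and 5 below with a median of -0.001, and Gab2, the adaptor that links BCR-ABL to SHP2 and PI3K, stood apart at -0.39, -0.38 and 0.12 (difference 0.50, adjusted p = 0.635). Abl1 (0.02, -0.06, -0.02) lay between A and B with IL-3, and Bcr (0.17, 0.15, 0.23) lay above both by 0.06. The position of their probes against the transgene was not analysed here.

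Immediate early genes, which serum and cytokines switch on within minutes through ERK, p38 and SRF, lay above both arrays in 16 of 25 cases and below both in 4. Their median difference was 0.18 (0.08 against A, 0.24 against B, and -0.17 between B and A). Zfp36, which marks AU-rich messages for decay, had the largest difference of the list (0.65), at 1.35, 0.95 and 1.80. Among the AP-1 subunits, Jun was at 0.33, 0.64 and 1.03, Fosl2 at 0.36, 0.33 and 0.82, and Fos at 0.03, 0.03 and 0.39. Fos and Fosl2 had A and B nearly on one point, with the IL-3 array 0.36 and 0.46 above. Ier5 was at 0.95, 0.77 and 1.35, and Klf6 at -0.06, -0.23 and 0.35. The early growth response genes did not share this: Egr1 was between A (0.12) and B (-0.18), Egr2 between 2.08 and 1.51, and Egr3 (0.22, 0.15, 0.14) just below both. Myc, a classic IL-3 target, was at 0.24, 0.13 and 0.09.

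NF-kB targets and inhibitors showed 9 of 14 members above both and 0 below, with a median difference of 0.16 (0.11 against A, 0.23 against B). The inhibitor Nfkbia was at 0.87, 0.65 and 1.26, the atypical inhibitor Nfkbiz at 0.16, 0.37 and 0.83 and the ubiquitin editor Tnfaip3 at -0.24, 0.12 and 0.30. Interferon-stimulated genes showed the most one-sided pattern among the lists that lay higher, with 23 of 25 above both and 1, Ifi35, below. Their median was 1.36 on A, 1.52 on B and 1.74 with IL-3, and their median difference 0.21 (0.17 against A, 0.25 against B). Ifit3, which binds in the antiviral IFIT complex, was at 2.99, 2.84 and 3.53 (difference 0.61, adjusted p = 0.448). The GTPase Mx2 was at 1.63, 1.77 and 2.21, the transcription factor Irf7 at 2.20, 2.01 and 2.61 and the synthetase Oas3 at 1.36, 1.21 and 1.74. In these 4 genes the IL-3 array stood 0.37 to 0.54 above the nearer array, while Usp18 (3.79, 3.68, 3.83) and Mx1 (1.87, 1.76, 1.89) were within 0.04 of A. Ifit3 and Mx2 have probe sets in the dim range. Without dim probe sets the median difference of the list was again 0.21. Counted after centring, 21 of 25 list members lay above both, against 32.6% of all genes. Without centring, the differences of the 25 members ran from -0.06 to 0.61.

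Cytokines and chemokines lay above both in 12 of 23 cases and below in 1, with a median difference of 0.13 (0.08 against A, 0.19 against B). Beside Osm and Lif these were the angiogenic factor Vegfa (0.02, 0.13, 0.47), the chemokine Ccl5 (1.54, 1.63, 1.96) and Il13 (3.11, 2.76, 3.21), while Tnf (2.78, 2.30, 2.53) and Ccl3 (4.17, 3.43, 3.97) were between A and B. Cytokine receptors were mixed, with 7 of 21 above and 3 below. The IL-4 receptor chain Il4ra was at 0.91, 0.64 and 1.10 and the IL-2 receptor beta chain Il2rb at 1.01, 1.21 and 0.81.

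**Figure D3:**
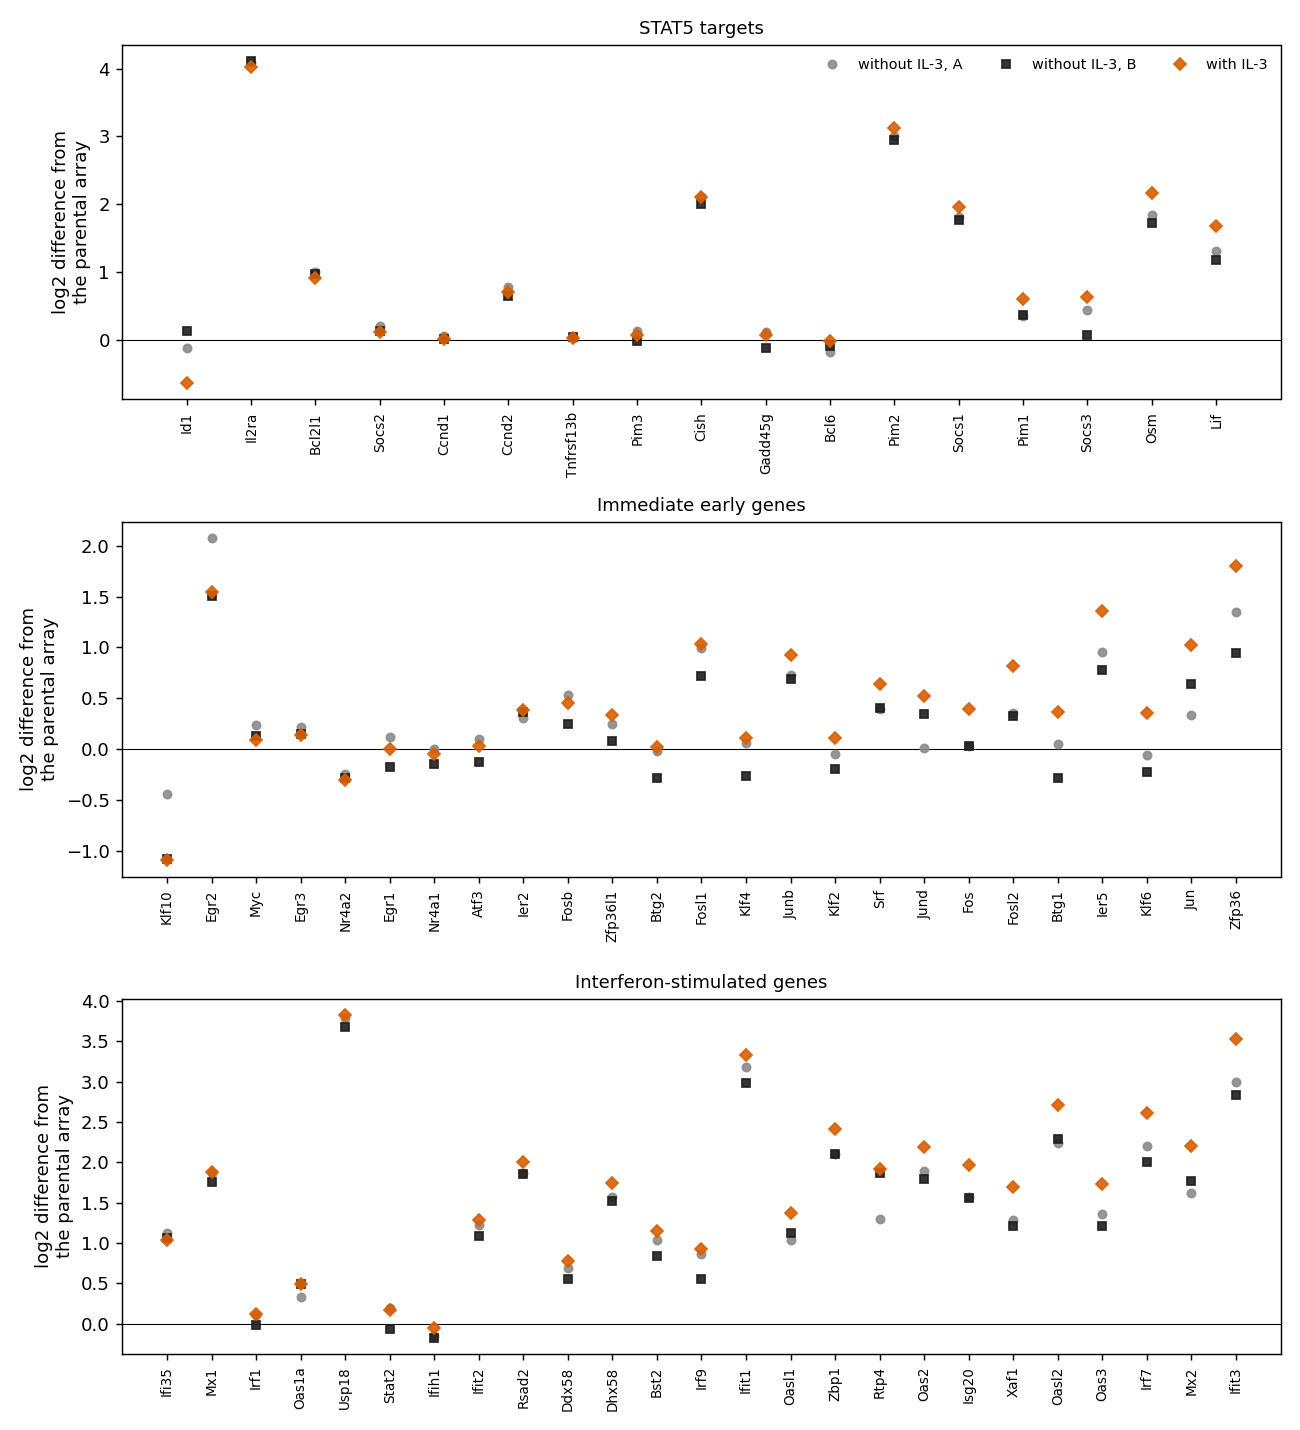
Log2 difference from the parental array for each member of 3 lists, ordered by the IL-3 difference; grey circles are A, black squares B and orange diamonds the array with IL-3. Among STAT5 targets 7 of 17 have the orange point on top and 5, Id1 among them, have it lowest, while 16 of 25 immediate early and 23 of 25 interferon-stimulated genes have the orange point on top.

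DNA replication genes and others of the G1/S step lay lower with IL-3, in 42 of 43 cases below both A and B and in 0 above. Their median was 0.36 on A, 0.43 on B and 0.05 with IL-3, so the IL-3 array was close to the parental one, which also had IL-3. The median difference was -0.38 (-0.34 against A, -0.38 against B), where B and A differed by 0.03. No member was called, and the differences of the 43 members ran from -0.61 to -0.01. The single member between A and B was Gins3 (-0.18, -0.01, -0.17). In bulk RNA, fewer cells in a phase of the cycle and less RNA per cell cannot be told apart.

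All 6 subunits of the MCM2-7 helicase, which unwinds DNA at the fork, lay below both: Mcm2 (0.35, 0.34, -0.04), Mcm3 (0.40, 0.43, 0.01), Mcm4 (0.40, 0.43, -0.04), Mcm5 (0.24, 0.36, 0.002), Mcm6 (0.01, 0.04, -0.34) and Mcm7 (0.41, 0.39, -0.17). In the first 4 the level with IL-3 was within 0.04 of the parental one. Pola1, the catalytic subunit of the priming polymerase, was at 0.22, 0.69 and -0.15, and its primase partner Prim1 at 0.58, 0.85 and 0.18. Fen1, the flap endonuclease that trims Okazaki fragments, was at 0.62, 0.63 and 0.09, and the licensing factor Cdc6 at 0.71, 0.66 and 0.23. The ribonucleotide reductase subunit Rrm2 (1.36, 1.55, 1.04), the cyclins Ccne1 (1.17, 1.11, 0.73) and Ccne2 (0.67, 0.87, 0.28) and the phosphatase Cdc25a (0.89, 0.82, 0.55) were lower with IL-3 than on A and B and still above the parental array. The factors E2f1 (0.17, 0.17, 0.15) and E2f2 (-0.21, -0.23, -0.27), which drive this programme, differed least.

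Mitosis genes followed with 33 of 36 below both and 0 above. Their median was -0.20 on A, 0.02 on B and -0.47 with IL-3, so here the IL-3 array was below the parental one. The difference was uneven between the reference arrays, at -0.21 against A and -0.46 against B, as B lay 0.20 above A. Cdk1, the kinase that starts mitosis, was at 0.003, 0.09 and -0.35, Plk1 at 0.04, 0.04 and -0.44 and the kinesin Kif20a at -0.19, -0.29 and -0.67. The hyaluronan receptor Hmmr of the spindle was at -0.18, 0.27 and -0.54, and Top2a, which untangles DNA, was at 0.02 on both A and the IL-3 array and at 0.62 on B. Differences of the 36 members ran from -0.58 to -0.04.

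Homologous recombination and Fanconi repair genes lay below both in 21 of 28 cases and above in 2 (Dmc1 and Xrcc3), with a median difference of -0.30 (-0.19 against A, -0.43 against B). The checkpoint kinase Chek1 was at 0.60, 0.74 and 0.20 and the exonuclease Exo1 at 0.60, 0.46 and 0.02. Replication-dependent histones lay below both in 22 of 30 cases and above in 2, with a median difference of -0.17. These genes form near-identical families, so signal of a probe set can come from several copies. G1 cyclins and kinases showed 6 of 12 below both and a median difference of -0.02. The D cyclins Ccnd1 (0.06, 0.01, 0.01), Ccnd2 (0.78, 0.65, 0.71) and Ccnd3 (0.13, 0.13, 0.18) lay at most 0.07 from A, and Cdk2, the partner of cyclin E, was at 0.13, 0.08 and -0.22.

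**Figure D4:**
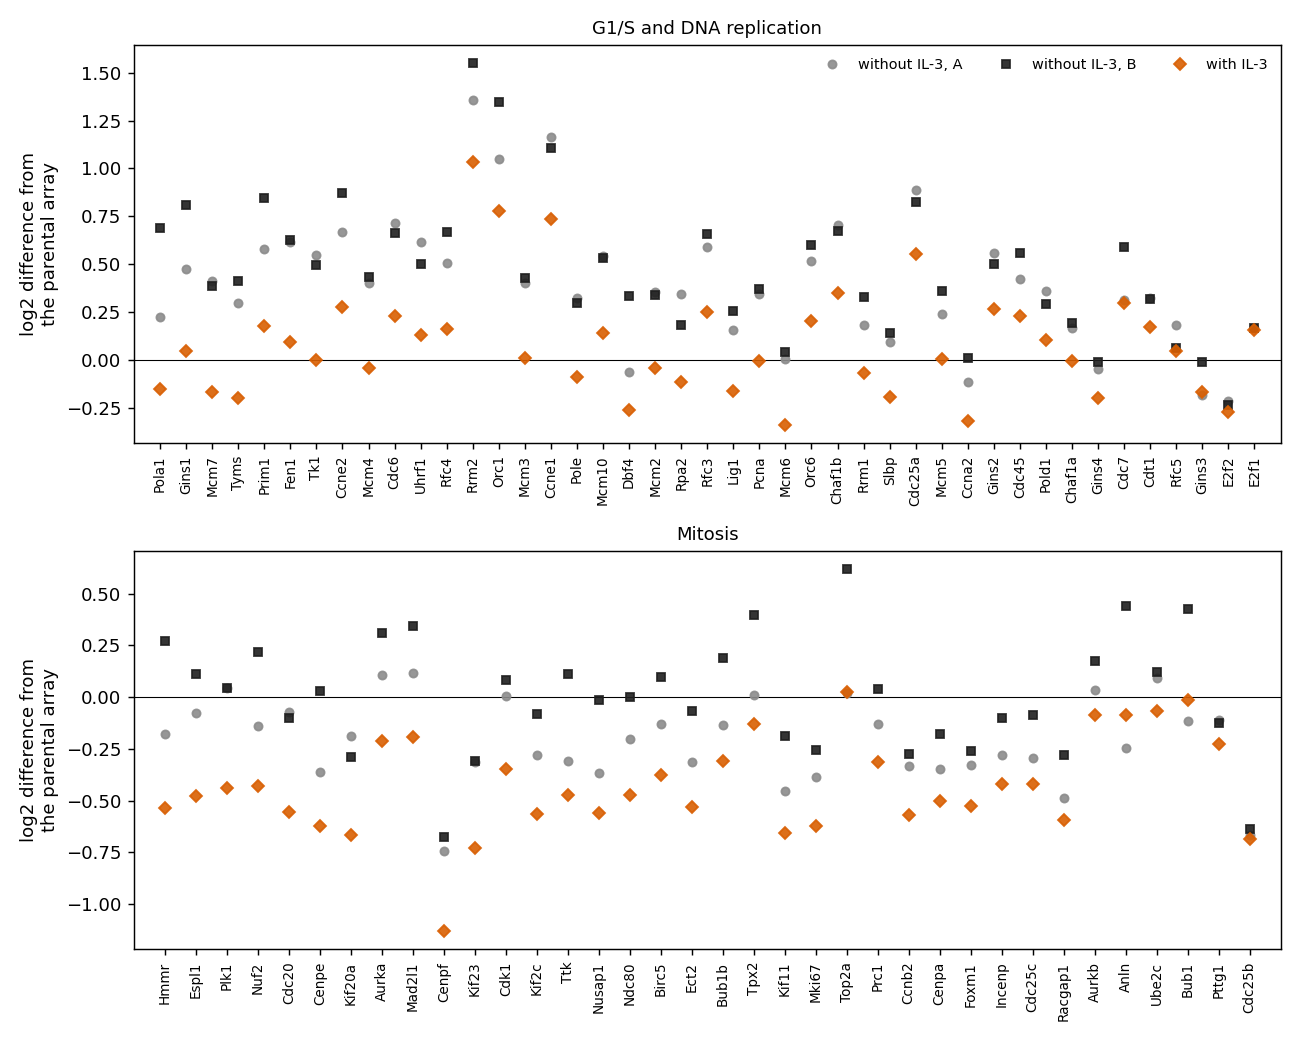
Log2 difference from the parental array for the 43 genes of G1/S and DNA replication (top) and the 36 of mitosis (bottom), ordered by the IL-3 difference; grey circles are A, black squares B and orange diamonds the array with IL-3. The orange point is the lowest of the 3 in 42 of 43 and 33 of 36 genes, and in the lower panel the black squares mostly lie above the grey circles.

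Promoter sequences show what the members of these lists share apart from their values. Motifs were searched on both strands of RefSeq promoters (GRCm38.p6, 250 bases before to 50 after each start). The E2F letters TTCCCGC or TTGGCGC stood in 53.5% of 43 promoters of the G1/S list (36 of its 43 genes matched) and in 56.0% of 25 promoters of the recombination list, against 6.81% of all 32851 promoters and 12.5% of 32 promoters of the mitosis list. The CHR letters TTTGAA, which are bound by the DREAM and MuvB complexes in late cell cycle genes, stood in 75.0% of the mitosis promoters (30 of 36 genes matched), 18.6% of the G1/S promoters and 17.9% of all. CCAAT stood in 75.0% of the mitosis promoters and 37.4% of all. The STAT letters TTCNNNGAA stood in 4 of 16 promoters of STAT5 targets (25.0%), in 6 of 23 of interferon-stimulated genes (26.1%), in 8.3% of all and in none of the 32 mitosis promoters. A match is a description of letters and not of a bound site. The stretches below show the first E2F form, the CHR letters and the STAT letters in members named here. The stretches have a marked match in capitals with 30 bases on either side, and run 5′ to 3′ along the gene's strand. They are Mcm7 at chr5:138172012-138172078 (minus strand), Cdc6 at chr11:98907983-98908049 (plus), Uhrf1 at chr17:56303259-56303325 (plus), Cdk1 at chr10:69352948-69353013 (minus), Mki67 at chr7:135716442-135716507 (minus) and Socs3 at chr11:117969482-117969550 (minus).
Mcm7: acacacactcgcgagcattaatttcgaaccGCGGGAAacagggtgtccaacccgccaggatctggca
Cdc6: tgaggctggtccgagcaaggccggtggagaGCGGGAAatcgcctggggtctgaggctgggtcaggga
Uhrf1: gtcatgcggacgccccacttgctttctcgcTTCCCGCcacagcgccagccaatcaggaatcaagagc
Cdk1: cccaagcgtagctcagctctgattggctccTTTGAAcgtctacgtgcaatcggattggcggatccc
Mki67: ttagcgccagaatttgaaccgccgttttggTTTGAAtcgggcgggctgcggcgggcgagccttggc
Socs3: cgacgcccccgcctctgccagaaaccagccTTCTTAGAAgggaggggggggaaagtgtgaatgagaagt
Mcm7 and Cdc6 hold the E2F letters in reverse complement and Uhrf1, which maintains DNA methylation at the fork, holds them forward. The Mki67 stretch also holds the CHR letters in lower case, before the marked match. Uhrf1 was at 0.61, 0.50 and 0.13 and the proliferation marker Mki67 at -0.38, -0.26 and -0.62, both below A and B with IL-3.

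Growth and biosynthesis genes also lay lower with IL-3. Ribosome biogenesis genes lay below both in 27 of 31 cases and above in 0, with a median of 0.80 on A, 0.75 on B and 0.55 with IL-3 and a median difference of -0.22 against each, which against their mean was -0.13 after quantile normalization. Utp20, a scaffold of the small-subunit processome, was at 0.86, 0.93 and 0.34 (difference -0.55, SE 0.15, adjusted p = 0.478). The pseudouridine synthase Dkc1 was at 0.80, 0.86 and 0.28 and the nucleolar protein Nolc1 at 1.13, 1.03 and 0.74. All 3 lay at least 0.28 below the nearer array and above the parental level. Purine and pyrimidine synthesis enzymes lay below both in 17 of 19 cases and above in 1, with a median difference of -0.30. The purine enzymes Gart (1.33, 1.44, 0.79) and Ppat (0.60, 0.67, 0.09) and the pyrimidine enzymes Ctps (1.22, 1.44, 0.79) and Cad (0.67, 0.74, 0.33) were among them. Letters of the E-box, CACGTG, which MYC and its relatives bind, stood in 21.4% of 28 ribosome biogenesis promoters, 18.2% of 22 promoters of purine and pyrimidine synthesis, 18.8% of 16 promoters of STAT5 targets and 7.15% of all.

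Lists of the translation machinery differed among themselves. Cytosolic ribosomal protein genes had 28 of 60 above both and 8 below, with a median difference of 0.02 that turned to -0.01 after centring. Aminoacyl-tRNA synthetases had 11 of 18 below both (61.1%, against 25.5% of all genes) and 3 above, with a median difference of -0.08 that was -0.01 against A and 0.02 after quantile normalization. Small nucleolar RNAs lay above both in 24 of 54 cases and below in 15. Besides Snord14e, Snora73a (-0.55, -0.26, 0.24) and Snora73b (-0.62, -0.31, 0.23), box H/ACA RNAs that act in the processing of ribosomal RNA, were higher with IL-3 than on both arrays. The host gene Gas5, which carries many box C/D RNAs, was picked once its values were known and was at 0.40, 0.64 and -0.02.

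The miR-17-92 cluster, a MYC and E2F target that promotes proliferation, was likewise picked with its values known. Its host transcript Mir17hg was at 0.34, 0.42 and -0.05 (difference -0.43, SE 0.15, adjusted p = 0.824). Mir18 was at 0.42, 0.58 and -0.25 (difference -0.75, SE 0.16, adjusted p = 0.296) and was 1 of the 8 genes at least 1.5-fold below both. Mir19a (0.38, 0.95, 0.08), Mir19b-1 (0.37, -0.08, -0.35) and Mir20a (0.18, 0.03, -0.02) lay below both too, while Mir17 (0.02, -0.31, -0.16) did not. Except for Mir20a, these genes have probe sets in the dim range, and without dim probe sets the count of 8 genes was 4. The probe sets read the gene of the hairpin, not the mature strand. The mature sequences, from RefSeq, are printed with the seed (bases 2 to 8) in capitals to show that the 5 strands given here hold 3 seeds; other strands of the cluster are not shown.
miR-17-5p: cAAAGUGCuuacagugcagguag
miR-20a-5p: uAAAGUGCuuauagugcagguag
miR-18a-5p: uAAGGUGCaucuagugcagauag
miR-19a-3p: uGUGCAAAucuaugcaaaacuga
miR-19b-3p: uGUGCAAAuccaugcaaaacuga
The first pair share 1 seed and the last pair another, and miR-18a-5p has its own. Of all 300 microRNA genes 57 lay below both and 146 above, and 191 of them had a probe set in the dim range.

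Metabolic lists divided. Cholesterol synthesis genes lay below both in 16 of 20 cases and above in 0, but B was itself 0.19 below A, so the median difference was -0.34 against A and -0.14 against B. The demethylase Cyp51 (0.21, 0.05, -0.33), the isomerase Ebp (0.34, 0.50, -0.10) and Idi1 (0.62, 0.55, 0.15), which makes the isoprenoid building block, had the widest gaps. Glycolysis and hypoxia genes lay above both in 16 of 24 cases and below in 0, with a median difference of 0.11. It was 0.14 against A and 0.15 against B, where B and A differed by 0.11. The glucose transporter Slc2a1 was at 0.32, 0.48 and 0.88, the hypoxia-induced Ankrd37 at -1.46, -1.03 and -0.77 and Ndrg1 at -0.54, -1.23 and 0.02. Proteasome genes lay below both in 30 of 45 cases with a median difference of -0.12 (-0.11 against A, -0.16 against B). Oxidative phosphorylation genes did so in 46 of 90 cases with -0.07 (-0.03 against A, -0.08 against B). Lysosome and autophagy genes lay above both in 14 of 25 cases with 0.09, led by the autophagy receptor Sqstm1 (-0.06, -0.28, 0.18) and the sialidase Neu1 (0.16, 0.05, 0.42). The antioxidant genes of NRF2 were split, with 4 of 15 above and 6 below, and Hmox1 apart from Nqo1 (-1.18, -1.10, -1.16).

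Survival genes showed small differences in both directions, from -0.13 to 0.33 in the BCL2 family. Of 14 BCL2 family genes 7 lay above both and 2 below, with a median difference of 0.07 (0.02 against A, 0.12 against B). The pro-apoptotic Bcl2l11, which encodes BIM, the main killer when IL-3 is withdrawn, was at -1.33, -1.54 and -1.17 (difference 0.26, 95% interval -0.07 to 0.60). The pro-apoptotic Bbc3, which encodes PUMA, was at -0.22, -0.36 and 0.04, while the protective Mcl1 was at -0.34, -0.09 and -0.02 and Bcl2 at 0.87, 1.11 and 0.87. So the members farthest above both were the pro-apoptotic pair, by 0.26 and 0.16, and neither passed the test. Targets of p53 lay above both in 11 of 17 cases, and CDK inhibitors with FOXO targets in 9 of 20. Foxo3 was at -0.41, -0.39 and -0.08, Sesn1 lay below both at -0.30, -0.50 and -0.99, and Cdkn1b, the p27 gene, at -1.13, -0.45 and -0.59, lay between. Drug transporters had 3 of 8 above and 3 below, and the P-glycoprotein gene Abcb1b was at 1.59, 2.11 and 1.51.

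Identity markers of Ba/F3 showed no common direction. With IL-3, Ptprc, Vpreb1 and Igll1 lay above both A and B, Cd79a below both, and Cd79b and Cd44 between. The leukocyte antigen Ptprc was at -0.41, -0.41 and -0.32, the surrogate light chain genes Vpreb1 at -0.17, -0.28 and -0.04 and Igll1 at -0.04, -0.20 and -0.003, Cd79b at -0.45, -0.35 and -0.40, Cd44 at 0.02, -0.25 and -0.03, and Cd79a at 0.31, 0.03 and -0.09. Since the files hold differences, whether a marker is present cannot be read from them. Markers of other cells gave 5 of 18 above both and 2 below for mast cells and basophils, 7 of 16 and 2 for erythroid cells and megakaryocytes, 7 of 21 and 4 for neutrophils and monocytes, 7 of 19 and 4 for B cells, 11 of 19 and 0 for T and NK cells and 11 of 25 and 4 for non-haematopoietic tissues, with median differences between -0.002 and 0.10. Olfactory receptors, genes of sensory neurons, lay above both in 473 of 1027 cases and below in 165, with a median difference of 0.04. Reference genes lay below both in 7 of 10 cases and above in 0, with a median difference of -0.10 (-0.03 against A, -0.18 against B). That shift runs the same way as the cell cycle and ribosome biogenesis differences, and its part in them was not tested. Centring cannot decide this, as it did not remove the shift. After it, 8 of 10 reference genes lay below both, with a median difference of -0.14, and 42 of 43 genes of the G1/S list.

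**Figure D5:**
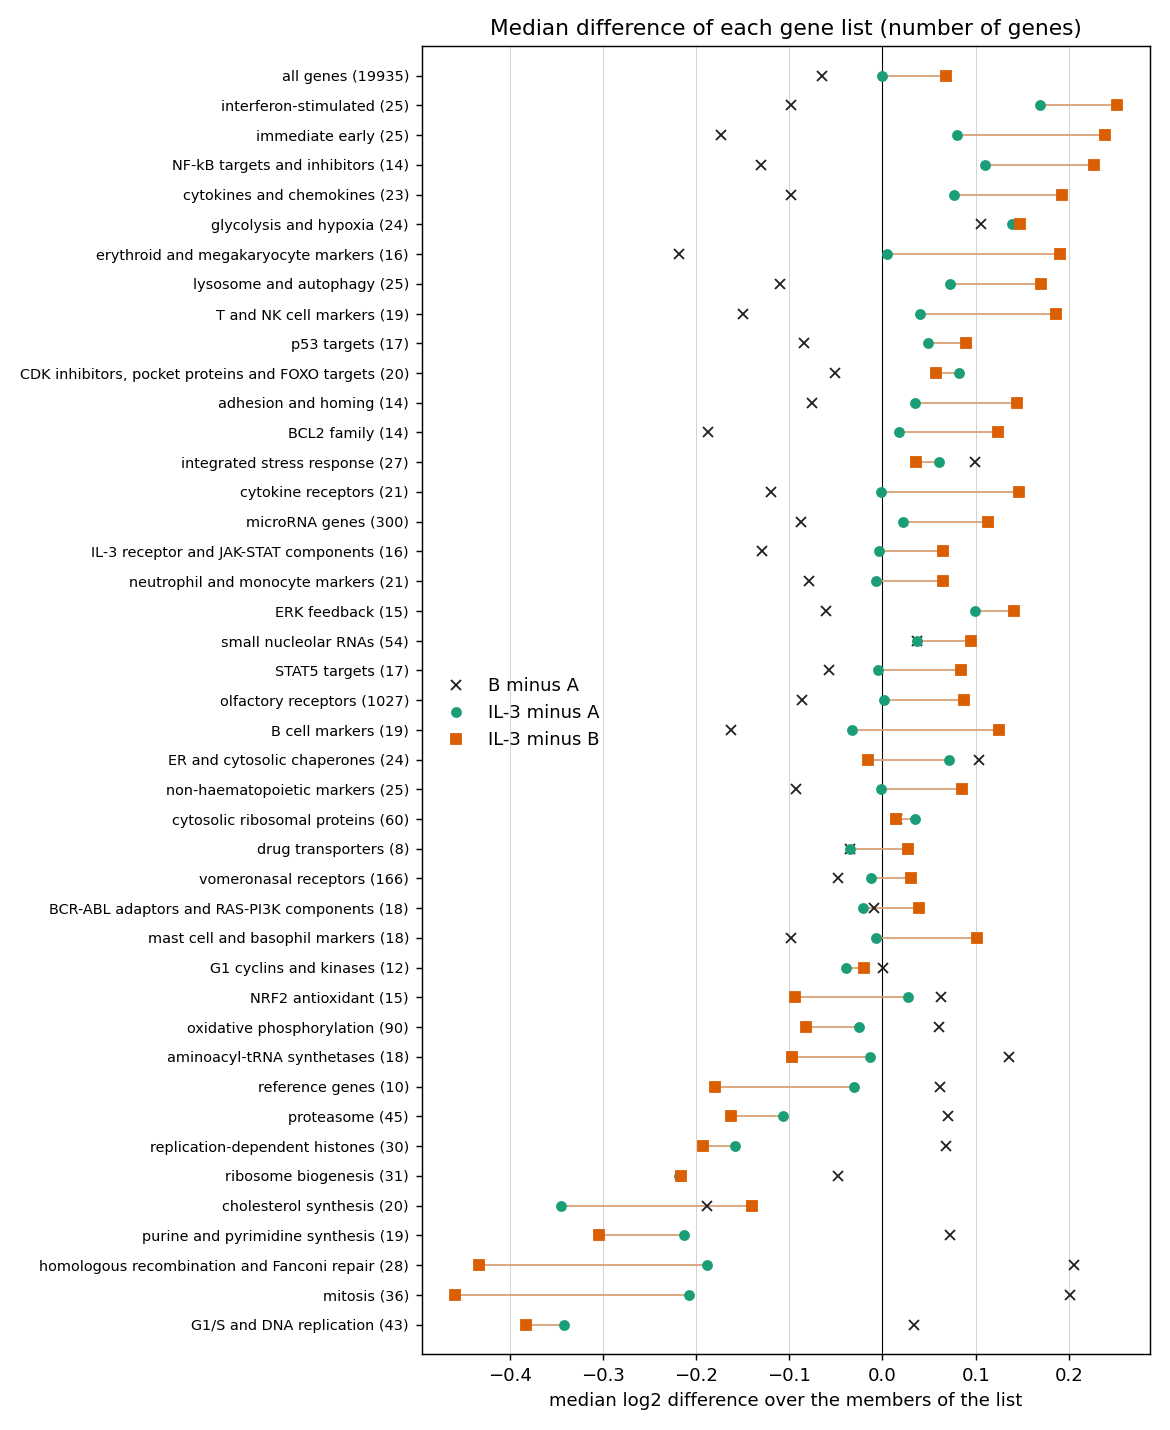
Median log2 difference over the members of each of 42 gene lists and over all genes (number of genes in brackets): green circles for IL-3 minus A, orange squares for IL-3 minus B, black crosses for B minus A. Lists are ordered by their median difference from the mean of A and B, from G1/S and DNA replication at the bottom (-0.34 and -0.38, with B minus A at 0.03) to interferon-stimulated genes (0.17 and 0.25) under the row of all genes.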

How the data were processed

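Total RNA of 4 cell samples was labelled and hybridised to Affymetrix Gene 1.0 ST arrays, per the labels' protocols. The deposited table holds log2 differences from the parental array, in the authors' own processing: the parental column is 0 for all 28815 probe sets. The base was read from the values, of which 99.8% are whole multiples of 2 raised to the power -21 (tolerance 0.25 of that step). Background correction, normalization and probe summary are not given in the sources used here, and signal over background was not analysed here. A probe set with an odd multiple had a stored number under 8 on some array and is called dim (11162 probe sets). Not every named gene with a dim probe set is marked above. Egr1 has one, as do Socs3 and Cdkn1b in 1 of 2 probe sets.

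The platform annotation gave 21780 probe sets 1 symbol, 1605 several and 5430 none, and the mean was taken for 998 genes with several probe sets. Differences were fitted with limma 3.58.1 in R 4.3.3 (lmFit and eBayes, 3 group means, two-sided, Benjamini-Hochberg over all genes). The spread comes from A and B alone (1 residual degree of freedom), and each single array is taken to vary as they do. The eBayes step draws each gene's variance toward a value shared by all genes (prior SD 0.128, prior degrees of freedom 16.4). SEs and intervals thus rest mostly on that shared value and little on the gene's own A to B difference. After centring the prior degrees of freedom were 4.2. Lists are described by counts and medians without tests.

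Named genes were the 12 with the widest gap on each side of A and B, leaving out predicted genes, receptors of smell and small RNAs, 4 per list in the direction of its median, and genes picked by name. Further list members were chosen after their values were seen. The comparison, the 42 lists and the rules were chosen with earlier results of these data known. Array B of the cells without IL-3 had a lower median than the other arrays, so many list medians are given against A and B apart. The rest are given against their mean only. Alternatives were centring, quantile normalization, other handling of probe sets, other thresholds and leaving out A or B.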

Additional observations from a re-analysis of the deposited data

How the results depend on the processing

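The limma count of 1 gene was 0 with arrays centred to a median of 0 and 0 after quantile normalization, with 875 and 1155 genes at an unadjusted p under 0.05. It was 2 with single-probe-set genes only and 2 at a threshold of 0.1, with Far2 added both times (adjusted p = 0.0394 and 0.0732). It was 1 with the median of probe sets, without dim probe sets, with robust eBayes and on the 3 BCR-ABL arrays alone. The counts of 15 genes above and 8 below both arrays were 1 and 0 at a fold of 2, and the lower count was 15 after centring and 4 without dim probe sets. With array A or B of the cells without IL-3 left out, the counts ran from 62 to 70 above and from 34 to 235 below, since 1 array then sets the limit. List medians changed sign for 4 of 42 lists after centring, 6 after quantile normalization, 2 without dim probe sets, 3 without A and 9 without B, the STAT5 target and JAK-STAT lists among the last. The medians of the cell cycle, ribosome biogenesis, interferon and immediate early lists changed sign under none of these. After quantile normalization the median difference was 0.03 for the JAK-STAT list and -0.07 for the proteasome list, and after centring it was -0.05 for the G1 cyclins and kinases. No paired analysis was possible because the compared groups share no replicate numbers.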

Other observations

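Of 27 genes of the integrated stress response 12 lay above both A and B with IL-3 and 7 below, with medians of 0.59 on A, 0.68 on B and 0.67 with IL-3. Some genes, picked with their values known, were lowest on A. The transcription factor Ddit3 was at 0.49 on A, 1.63 on B and 2.0 with IL-3, the pseudokinase Trib3 at 0.60, 1.15 and 1.59, and Ddit4, an inhibitor of mTORC1, at -1.03, -0.19 and 0.04. The cell cycle inhibitors Ccng2 (-1.21, -0.15, 0.05) and Gadd45a (-1.0, -0.47, 0.0014) had the same order. In Ddit3, Ddit4 and Ccng2 the distance between A and B was larger than that between B and the IL-3 array. The serine synthesis enzymes Phgdh (0.92, 1.12, 0.81) and Shmt2 (0.66, 1.02, 0.48), on the same list, lay below both with IL-3.

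Of 24 chaperone genes 10 lay above both A and B (41.7%) and 6 below (25.0%), near the 39.9% and 25.5% of all genes. The endoplasmic reticulum chaperone Pdia4 was at 1.12, 0.98 and 1.67 and Hspa5 at 0.59, 0.78 and 1.01, both above A and B with IL-3. The mitochondrial chaperones Hspd1 (0.91, 1.25, 0.72) and Hspe1 (0.68, 0.84, 0.59) lay below both. Adhesion and homing genes lay above both in 6 of 14 cases (42.9%) and below in 1. Among them, the integrin Itga4 (-1.95, -1.90, -1.46) and the homing receptor Cxcr4 (-1.11, -1.13, -0.67) were under the parental level in BCR-ABL cells. Both lay nearer to it with IL-3. None of these genes passed the limma test. The unnamed transcript I730030J21Rik had the lowest difference of all genes, -1.62, on values of 1.16, 2.98 and 0.46, with 1.81 between A and B. Its probe set is in the dim range.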
